A study of Mus musculus with 6 samples.

Results

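The genes described here are 32 genes of the interferon response, given as a list of symbols and read on 6 one-colour Agilent arrays of mouse liver RNA. Each gene was represented by the probe with the highest mean signal among the probes whose transcript accession maps to it. Of the 32 genes, 29 matched a probe, while Oas1b, Mx1 and Mx2 did not and are not analysed here. All 29 entered the test, which asked for a signal well above background on 3 or more arrays, and 28 had one on every array. They were tested among 21059 genes and unmatched transcripts, 14213 of which carry a symbol.

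The arrays hold 3 control wild-type livers and 3 livers in which small Maf genes were knocked out in the liver alone (sMaf CKO), and the comparison asks which transcripts differ by genotype. Small Maf proteins are DNA-binding partners of the CNC and Bach transcription factors. All mice were 5 weeks old, of a mixed background of 129Sv/J, C57BL/6J and ICR, and housed free of specific pathogens with no treatment named. The submitters call the RNA samples of a genotype independent. The Cre driver, the small Maf genes deleted, and any allele or transgene carried by the controls are not given in the sources used here.

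The 75th percentile of the processed signal lay between 483 and 961 units on the 6 arrays, and 58.0% to 73.6% of probes were well above background. Slide 1 carried replicates 1 and 2 of each genotype and slide 2 carried replicate 3 of each, so a value within slide 2 compares 1 array with 1. Mafg, 1 of the small Maf genes, read 1.88, 1.87 and 2.23 on control arrays 1 to 3 and -2.97, -4.36 and -0.76 on sMaf CKO arrays 1 to 3 (log2 signal relative to the array's 75th percentile). All sMaf CKO arrays lay below all controls, with the highest signal in replicate 3, and limma's adjusted p was 0.0533. It was 0.0207 with slide as a block and 0.00484 without sMaf CKO replicate 3, and normexp, median scaling, the filter on all arrays, slide 1 alone, the replicate block and array weights also gave values under 0.05. The differences of Maff (0.15) and Mafk (0.21) were within their spread, and both turned sign when single arrays were left out, Mafk also within slide 2. All 8 hepatocyte markers that matched a probe, out of 10 listed, were well above background on every array.

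Interferons are secreted proteins through which cells answer viruses and other microbes. Type I interferons act through the receptor chains IFNAR1 and IFNAR2, type III interferons through IFNLR1 with IL10RB, and interferon gamma, the type II interferon, through IFNGR1 and IFNGR2. The receptors activate JAK kinases, which phosphorylate STAT proteins. The complex that holds STAT2 and IRF9 binds interferon-stimulated response elements (ISRE), and STAT dimers bind gamma-activated sites (GAS). In the liver, hepatocytes, Kupffer cells, endothelial cells and lymphocytes all respond to interferons, with type III interferons acting mainly on epithelial cells.

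No interferon response gene passed limma's test. Oasl1, Oas2 and Oas1a, of the oligoadenylate synthetase and synthetase-like family, and the transcription factor gene Irf8 had the smallest p. Their differences were 0.63 to 0.92 on the log2 scale (sMaf CKO minus control), and their groups did not overlap. Outside the list, Ifnlr1, the chain of the type III interferon receptor that gives it its specificity, rose 7.85-fold. Its call was lost in 3 of the 6 fits with 1 array left out. The call was also lost with spike-in scaling and with no filter on dim probes (limma's adjusted p of 0.0553 to 0.0867 over these fits). The bearing of Ifnlr1 on the members was not tested. Of the 29 members, 0 passed at an adjusted p under 0.05, while 114 of all 21059 features passed (0.541%), 81 that rose (0.385%) and 33 that fell (0.157%). Under quantile normalization those were 18 and 4, and with single arrays left out between 3 and 294 features passed. At an unadjusted p under 0.05, 5 members were higher (17.2%) and 0 lower, beside 8.71% and 8.1% of all features, or 16.8% in either direction. With slide as a block in the model 0 members passed, beside 340 of all features (1.61%, with 0.992% that rose and 0.622% that fell), and 7 had an unadjusted p under 0.05, beside 20.8% of all features. With array weights 1 passed (Oasl1), beside 472 of all features (2.24%).

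Differences (sMaf CKO minus control, log2) ran from -0.37 for Ddx58 to 0.92 for Oasl1 over the 29 members, with a median of 0.19 beside -0.05 over all features. In whole liver, more cells of a type and more RNA per cell cannot be told apart. They were positive for 20 members (69.0%), beside 45.3% of all features. On slide 1 alone the median was 0.25, on slide 2 alone 0.29, and 16 members were positive and 5 negative on both slides, beside 32.6% and 36.2% of all features. Left-out arrays moved the median between 0.06 without sMaf CKO replicate 2 and 0.38 without sMaf CKO replicate 3, and it was also 0.06 without control replicate 3. For 4 members (13.8%) every sMaf CKO array lay above every control array and for 0 below, beside 11.3% and 11.5% of all features and 22.9% in either order. No member differed by 1 or more, beside 8.89% of all features. Of the shares by non-overlap and by size, the one with every sMaf CKO array above was near that of all features. The others of these were below it, while the share with a positive difference was above it. Scaling on the spike-in probes raises every difference by 0.33, and 28 of the 29 members are positive under it, beside 73.8% of all features.

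**Figure D1:**
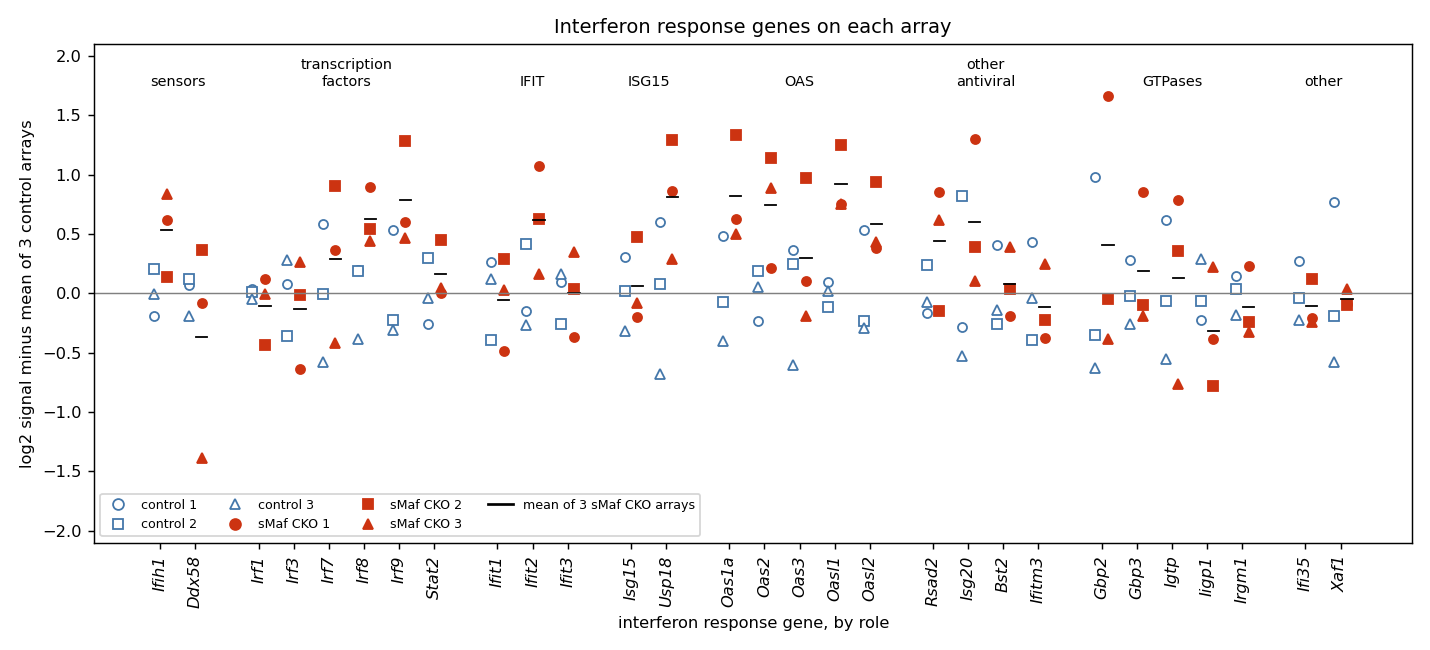
Each point is 1 array's log2 signal of an interferon response gene minus that gene's mean over the 3 control arrays, with genes grouped by role on the x axis, open symbols for control, filled symbols for sMaf CKO and a bar at the sMaf CKO mean. All 5 OAS genes are highest on sMaf CKO array 2, whereas Gbp2, Gbp3, Igtp and Irgm1 are highest on sMaf CKO array 1.

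Ifih1 and Ddx58 encode MDA5 and RIG-I, the cytosolic sensors of viral RNA that start interferon production. Ifih1 read 0.80, 1.19 and 0.98 on control arrays 1 to 3 and 1.61, 1.13 and 1.83 on sMaf CKO arrays 1 to 3. Array 2 of the sMaf CKO group lay within the control range and the others above it, a difference of 0.53 (SE 0.25, adjusted p = 0.343 in limma's test). The second Ifih1 probe, dimmer, differed by -0.80, so that the mean of the probes gave -0.14. Control livers averaged 1.24 ± 0.17 (SD, n = 3) for Ddx58, and sMaf CKO livers 0.87 ± 0.91 (SD, n = 3). Its wide spread came from sMaf CKO array 3, which read -0.14, below all other arrays, and the difference was 0.14 without it.

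Among the transcription factors, Irf8 and Irf9 had the largest differences. Irf8, a regulator of myeloid cells that is induced by interferon gamma, read 1.48, 1.48 and 0.90 in control and 2.18, 1.83 and 1.73 in sMaf CKO liver. Its groups did not overlap, at a difference of 0.63 (SE 0.26, 95% confidence interval 0.03 to 1.22, adjusted p = 0.278), and the other Irf8 probe differed by 0.33. Irf9, the DNA-binding subunit of the complex with STAT2, read 1.996, 1.23 and 1.15 in control and 2.06, 2.75 and 1.93 in sMaf CKO liver. Control array 1 lay within the sMaf CKO range, and the difference was 0.79 (SE 0.33, adjusted p = 0.286), against -0.05 by the dimmer second probe. Stat2, the partner of IRF9, differed by 0.17 (95% confidence interval -0.40 to 0.74).

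Irf7, which amplifies type I interferon production, averaged -0.72 ± 0.58 (SD, n = 3) in controls, against -0.43 ± 0.66 (SD, n = 3). This difference of 0.29 was smaller than either spread. Irf1, a target and mediator of interferon gamma signalling, differed by -0.11 and Irf3, the factor that sensors activate without new synthesis, by -0.13. The sign of both turned positive under spike-in scaling and quantile normalization, and their intervals reached from -0.63 to 0.42 and from -0.83 to 0.57.

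The IFIT proteins bind viral RNA, and ISG15 is a ubiquitin-like protein that USP18 removes from its targets. Ifit1 differed by -0.06, Ifit3 by 0.005 and Isg15 by 0.06, with intervals of -0.73 to 0.62, -0.60 to 0.61 and -0.57 to 0.70. These differences sat near 0 with no fixed sign across settings. Ifit2 differed by 0.62 (SE 0.31, adjusted p = 0.362), and its other probe by 0.51. Usp18, which also dampens signalling at the type I receptor, averaged 1.67 ± 0.65 (SD, n = 3) in controls and 2.48 ± 0.50 (SD, n = 3) in sMaf CKO livers, which is 0.81 higher (adjusted p = 0.346). The probe of Ifit3 was not tested for cross-reading of the neighbouring paralog Ifit3b, whose difference was -0.12.

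The oligoadenylate synthetases make the short RNA second messengers that activate RNase L, which then cuts RNA in the cell. All 5 members of the synthetase and synthetase-like family with a probe had positive differences on both slides, from 0.29 for Oas3 to 0.92 for Oasl1. The median was 0.75 (0.70 on slide 1 alone, 0.74 on slide 2 alone). Oasl1, a synthetase-like protein known to limit translation of Irf7, read -1.50, -1.71 and -1.58 on control arrays 1 to 3 and -0.84, -0.35 and -0.85 on sMaf CKO arrays 1 to 3. The 3 controls lay close together and below all sMaf CKO arrays, a difference of 0.92 (SE 0.23, 95% confidence interval 0.39 to 1.45). It had the smallest p of the members, but did not pass after adjustment (adjusted p = 0.126; 0.0962 with slide as a block and 0.0491 with array weights).

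Oas2 read -1.36, -0.94 and -1.07 in control and -0.91, 0.02 and -0.24 in sMaf CKO liver. The groups were separated by a narrow gap between control array 2 and sMaf CKO array 1, with a difference of 0.75 (SE 0.29, adjusted p = 0.26). A second Oas2 probe differed by -0.44, but was well above background on only 1 array of each genotype and was not kept. Oas1a read 0.34, -0.22 and -0.55 in control and 0.48, 1.19 and 0.36 in sMaf CKO liver. Here too the groups just failed to overlap, control array 1 lying slightly below sMaf CKO array 3, at a difference of 0.82 (SE 0.33, adjusted p = 0.27). Oasl2 differed by 0.58 (SE 0.30, adjusted p = 0.377). Oas3 differed by 0.29 (adjusted p = 0.735, and 0.44 by the other probe), was not well above background on control array 3, and turned sign when control replicate 3 or sMaf CKO replicate 2 was left out. The Oas1 genes are a cluster of close paralogs, and the probes were not tested for cross-reading between them.

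Promoters are shown for the 3 members with the smallest p that have an entry in the RefSeq table, Oasl1, Oas1a and Irf8. With Oas2, which has no entry, they are the members whose arrays were separated. Each line gives a window of 300 bases around a transcription start, most of them before it, on build GRCm38.p6, 5′ to 3′ on the gene's strand, and for Irf8 the upstream start of 2. Capitals mark matches to the ISRE core, which is GAAA, any 2 bases and GAAA on either strand, or to the GAS core TTCNNNGAA, which is its own reverse complement.
Oasl1, chr5:114922990-114923289, plus strand: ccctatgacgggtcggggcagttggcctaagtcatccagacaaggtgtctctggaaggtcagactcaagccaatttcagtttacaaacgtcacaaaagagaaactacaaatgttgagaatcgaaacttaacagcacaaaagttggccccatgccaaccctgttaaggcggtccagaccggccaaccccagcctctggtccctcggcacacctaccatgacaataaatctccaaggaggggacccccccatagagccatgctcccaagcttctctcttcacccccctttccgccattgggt
Oas1a, chr5:120907476-120907775, minus strand: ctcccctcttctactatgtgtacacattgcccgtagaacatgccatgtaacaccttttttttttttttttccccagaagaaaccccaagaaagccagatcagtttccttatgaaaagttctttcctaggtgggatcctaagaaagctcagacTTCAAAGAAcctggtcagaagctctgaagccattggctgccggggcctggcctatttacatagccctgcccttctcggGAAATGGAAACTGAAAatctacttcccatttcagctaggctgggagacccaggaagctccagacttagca
Irf8, chr8:120736108-120736407, plus strand: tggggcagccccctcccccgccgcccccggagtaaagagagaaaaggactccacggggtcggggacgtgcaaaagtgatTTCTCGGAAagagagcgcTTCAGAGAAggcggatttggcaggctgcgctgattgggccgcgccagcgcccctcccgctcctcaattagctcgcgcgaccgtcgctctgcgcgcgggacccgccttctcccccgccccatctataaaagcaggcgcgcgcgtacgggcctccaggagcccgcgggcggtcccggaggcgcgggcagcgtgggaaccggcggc

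The Oas1a window holds 2 overlapping ISRE core matches, whose first bases lie at -20 and -14 from the start, and 1 GAS core match at -98. The Irf8 window holds 2 GAS core matches, at -171 and -153, and no ISRE core match. In the Oasl1 window neither set of letters occurs. Over the table, 26 of the 32 genes have 33 promoters. An ISRE core match lies in a promoter of 15 of these genes (57.7%), beside 3.99% of all 27025 genes in the table, and a GAS core match in 9 (34.6%), beside 9.55%. Differences of members with and without a match are given as a description, and the bearing of a match on them was not tested. Usp18, Oas2 and Iigp1 (0.81, 0.75 and -0.31) have no promoter in the table and are in neither group. The median was 0.13 with an ISRE core match (15 tested genes, 11 positive), against 0.58 for the 11 tested genes without one (7 positive). For the GAS core it was 0.13 with a match (9 tested genes, 6 positive) and 0.19 without (17 tested genes, 12 positive).

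Of the other antiviral effectors, Isg20, an RNA exonuclease, differed by 0.60 (SE 0.44, adjusted p = 0.529) and Rsad2, which encodes the antiviral enzyme viperin, by 0.44 (SE 0.30, adjusted p = 0.5), with 0.25 and -0.01 by its other probes. Bst2, the tether that holds budding virus at the cell surface, averaged 6.16 ± 0.35 (SD, n = 3) in controls, against 6.24 ± 0.29 (SD, n = 3). Ifitm3, which blocks viral entry by fusion, averaged 6.24 ± 0.41 (SD, n = 3) and 6.12 ± 0.33 (SD, n = 3), with a difference that turned positive under spike-in scaling and quantile normalization. Neither pair differed by more than its spread.

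The interferon-induced GTPases attack the membranes around intracellular microbes and are mostly targets of interferon gamma. Their differences were 0.41 for Gbp2, 0.19 for Gbp3, 0.13 for Igtp, -0.11 for Irgm1 and -0.31 for Iigp1, all with intervals that include 0. Irgm1 and Iigp1 turned positive under spike-in scaling and quantile normalization. Gbp2 had the widest interval of any member (-1.02 to 1.83), because control array 1 and sMaf CKO array 1 both stood above the rest of their groups. Without sMaf CKO replicate 1, the differences of Gbp2 and Gbp3 became -0.22 and -0.15. Ifi35, an interferon-induced leucine zipper protein, and Xaf1, an interferon-induced protein of apoptosis, differed by -0.11 and -0.05, both positive under spike-in scaling.

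**Figure D2:**
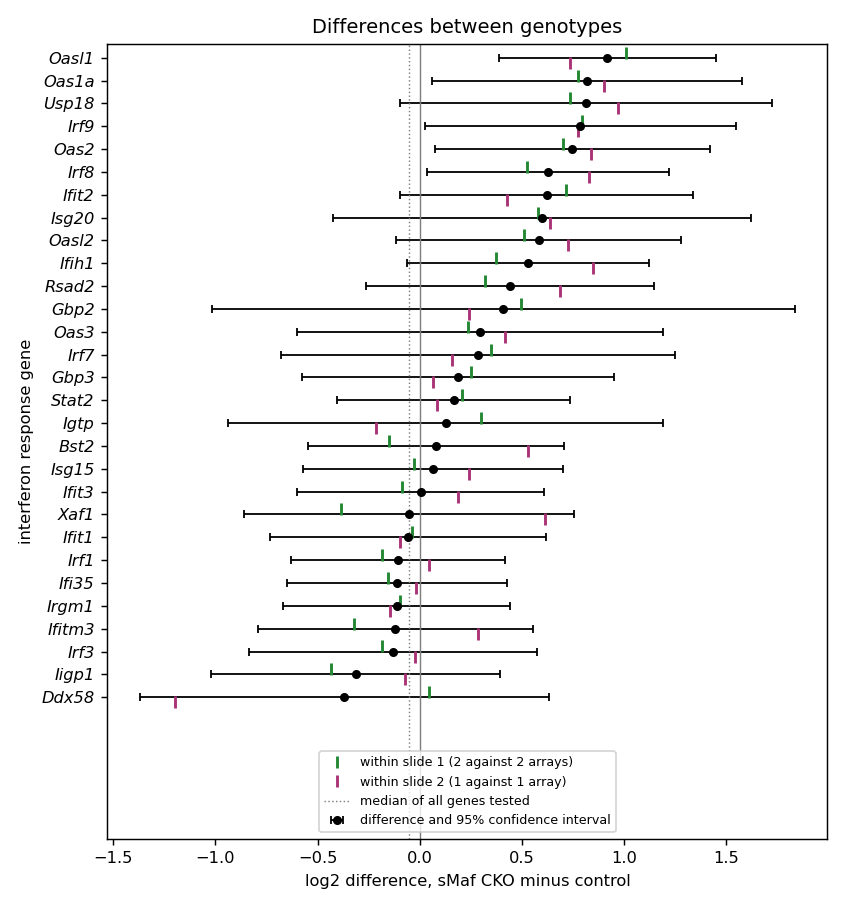
Points are log2 differences (x axis, sMaf CKO minus control) of the 29 tested interferon response genes (y axis) with 95% confidence intervals from limma, and ticks mark the values within slide 1 and slide 2. Intervals of Oasl1, Oas1a, Irf9, Oas2 and Irf8 lie above 0 before adjustment and all others include 0.

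Genes that act before and beside these members were taken from further lists. Of 18 interferon genes, 11 matched a probe and 6 were tested, the other 5 being well above background on fewer than 3 arrays. By limma, 0 of the 6 passed, and 0 had an unadjusted p under 0.05. Ifng, encoding interferon gamma, was well above background on 2 control and 3 sMaf CKO arrays and differed by 0.60 (adjusted p = 0.609). Ifnl3, a type III interferon, was well above background on 2 control and 1 sMaf CKO arrays and differed by -0.28 (adjusted p = 0.629), a sign that turned under normexp, under spike-in scaling and within slide 2.

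Of 10 receptor chains, JAK kinases and STATs, 1 rose and 0 fell. Ifnlr1 read -3.93, -3.33 and -3.38 on control arrays 1 to 3 and -0.17, -0.82 and -0.74 on sMaf CKO arrays 1 to 3. All were well above background, and the gap between the groups was far wider than the spread within either. The difference was 2.97 (SE 0.28, 95% confidence interval 2.33 to 3.62, adjusted p = 0.0131), 3.14 within slide 1 and 2.64 within slide 2, from the single probe of the gene. With arrays left out it ranged from 2.77 to 3.09. It lost its call without control replicate 1 (adjusted p = 0.0867), sMaf CKO replicate 1 (0.0858) or sMaf CKO replicate 2 (0.0656), with spike-in scaling (0.0553) and with no filter on dim probes (0.0709).

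The partner chain Il10rb read 2.41, 2.05 and 1.999 in control and 2.80, 2.77 and 2.99 in sMaf CKO liver, or 0.70 higher (SE 0.22, adjusted p = 0.184). Ifngr1, the ligand-binding chain for interferon gamma, read 3.64, 3.57 and 3.54 in control and 4.65, 4.40 and 4.39 in sMaf CKO liver, or 0.89 higher (SE 0.20, adjusted p = 0.101). Both were chosen for description after their values were seen, and neither passed the test. In both, as in Ifnlr1, every sMaf CKO array lay above every control array. This held for 3 of the 10 genes of the list (30%), beside 11.3% of all features. The other chains were nearer to 0, at -0.14 for Ifnar1, -0.10 for Ifnar2 and 0.21 for Ifngr2. Tyk2 differed by -0.44, Jak2 by -0.29, Jak1 by -0.20 and Stat3 by -0.06, and none of these passed. Over the list 4 genes were positive and 6 negative, with a median of -0.08, beside -0.05 over all features.

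**Figure D3:**
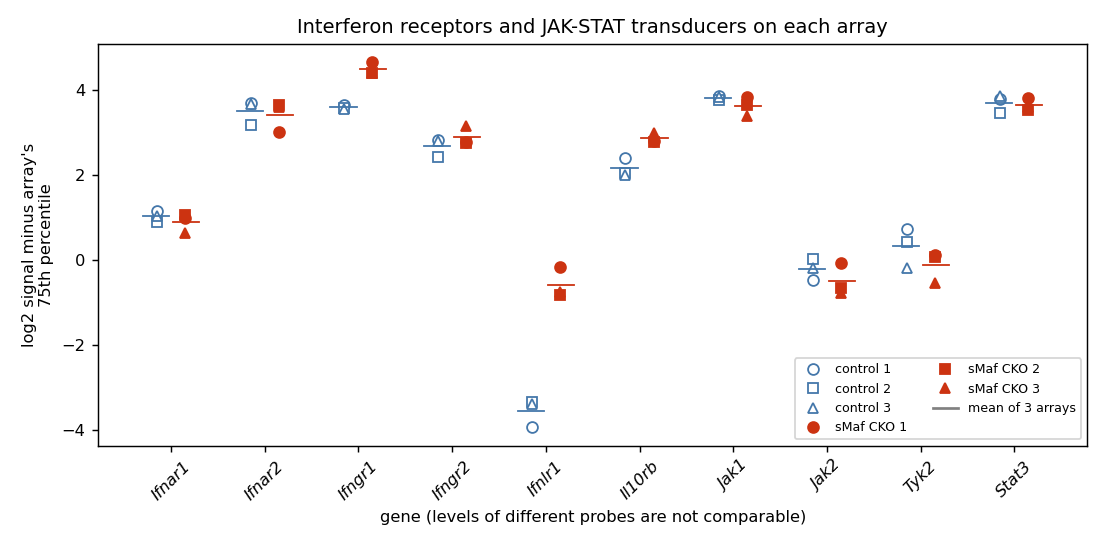
Points are log2 signals relative to the array's 75th percentile (y axis) of 10 receptor and JAK-STAT genes (x axis) on each array, open for control and filled for sMaf CKO, with bars at group means. Only Ifnlr1, at -3.93 to -3.33 in control and -0.82 to -0.17 in sMaf CKO liver, passed the test.

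Inhibitors of the pathway had 0 of 8 genes past the test and 2 higher at an unadjusted p under 0.05, which 8.71% of all features were (8.1% were lower). These were Socs1, an inhibitor of JAK kinases (0.77, SE 0.30, adjusted p = 0.267), and the phosphatase gene Ptpn6 (0.57, SE 0.22, adjusted p = 0.259), which was -0.009 as the mean of its probes. Of 19 tested nucleic acid sensors and adaptors 0 passed, with 3 higher and 2 lower at an unadjusted p under 0.05. The smallest p belonged to Mb21d1, encoding the DNA sensor cGAS (0.85, SE 0.21, adjusted p = 0.132), and Ifi204, a DNA-binding protein of myeloid cells (0.64, SE 0.22, adjusted p = 0.221).

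Of 37 tested further type I interferon targets, 0 passed limma's test, and 8 were higher and 0 lower at an unadjusted p under 0.05. Their median was 0.25 (0.21 within slide 1, 0.37 within slide 2), and 30 were positive (81.1%), beside 45.3% of all features. The genotypes did not overlap for 10 of them, all higher in sMaf CKO liver (27.0%, beside 11.3%). Tor3a, an interferon-induced torsin, differed by 1.19 (SE 0.32, adjusted p = 0.151) and Oas1c, an Oas1 paralog, by 0.75 (SE 0.21, adjusted p = 0.16). Of 10 tested targets of interferon gamma and genes of MHC class II, 0 passed (1 higher and 1 lower at an unadjusted p under 0.05). The chemokine gene Cxcl10 differed by 1.59 (SE 0.44, adjusted p = 0.154; 0.0497 with array weights). Ido1, a tryptophan-degrading enzyme, differed by -0.91 (adjusted p = 0.224) and was well above background on 2 control and 1 sMaf CKO arrays. Of 10 further interferon-induced GTPases 0 passed, with 0 at an unadjusted p under 0.05. Ifi47 differed by 0.58 (1.07 within slide 1 and -0.42 within slide 2) and Irgm2 by 0.40.

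Within the sMaf CKO group the targets did not peak on the same array. All 5 tested OAS members were highest of the 6 arrays on sMaf CKO array 2, as were Usp18, Irf9 and Irf7, and 12 of the 29 members did so in all, beside 11% of all features. All 10 further GTPases, 4 of the 5 GTPase members and 8 of the 10 interferon gamma and MHC class II targets were highest on sMaf CKO array 1, beside 18.5% of all features. The median of the MHC class II and interferon gamma list, relative to control means, was 1.85 on that array, -0.16 on sMaf CKO array 2 and -0.33 on sMaf CKO array 3, and 0.75, -0.40 and -0.35 on control arrays 1 to 3. Array 1 was thus high in both genotypes. No test compared arrays within a genotype.

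**Figure D4:**
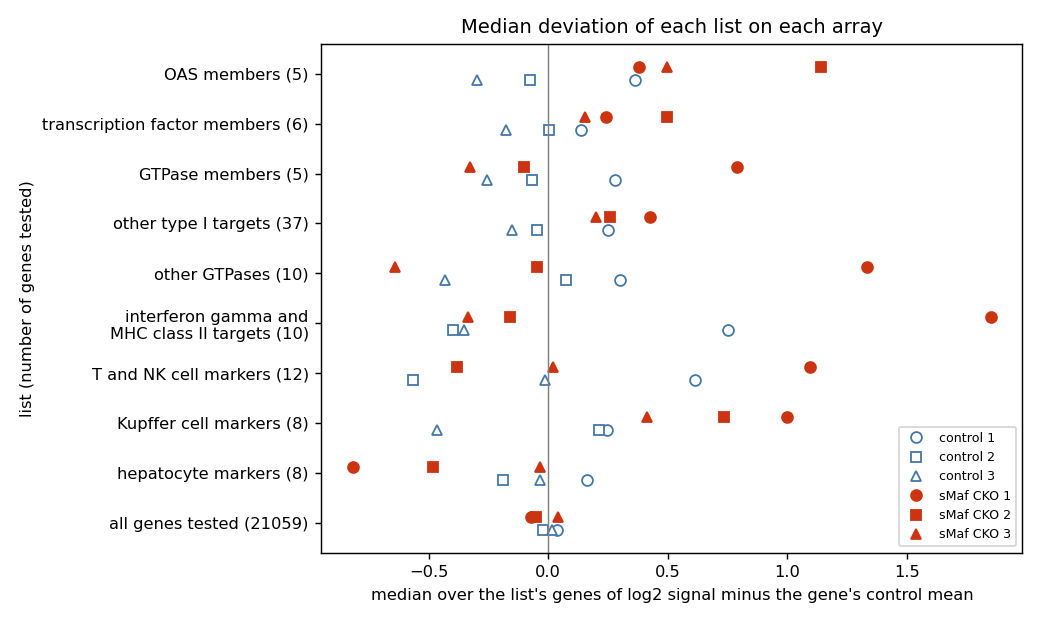
Points are medians, over the genes of a list (y axis, number tested in brackets), of log2 signal minus the gene's control mean (x axis) on each array, open for control and filled for sMaf CKO. The OAS genes are highest on sMaf CKO array 2 (1.14). The GTPase, interferon gamma, T and NK cell and Kupffer cell lists are highest on sMaf CKO array 1 (0.79 to 1.85), as are the other type I targets (0.43).

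Markers of immune cells varied beside these values. T and NK cell markers (12 of 12 tested, 0 passed, 0 higher and 1 lower at an unadjusted p under 0.05) were highest on sMaf CKO array 1 for 8 of 12 genes. Their summed signal, in multiples of the array's 75th percentile, was 1.06 to 2.60 in control and 1.18 to 4.15 in sMaf CKO liver, with none of the 12 dim on every array. Kupffer cell markers (8 of 8 tested, 0 passed, 4 higher at an unadjusted p under 0.05, beside 8.71% of all features) were positive in 8 of 8. Their sums were 78.2 to 126 in control and 184 to 411 in sMaf CKO liver and did not overlap. The peak on sMaf CKO array 1 was not particular to T and NK cell markers (66.7%). It held for 7 of 8 Kupffer (87.5%), 4 of 6 bile duct (66.7%) and 3 of 6 stellate markers (50%), beside 18.5% of all features. Marco, a scavenger receptor of macrophages named here after its values were seen, differed by 3.73 (adjusted p = 0.0859), passed with slide as a block (0.0107) and without sMaf CKO replicate 3 (0.0485), and was the 1 Kupffer marker that passed with that block. Of 8 markers of monocytes and monocyte-derived macrophages 2 rose, Trem2 by 4.18 (adjusted p = 0.0105, well above background on 2 of 3 control arrays) and Gpnmb at least 22.2-fold (adjusted p = 0.0117, well above background on no control array). Without control replicate 1 the adjusted p of these genes was 0.0761 and 0.069, without sMaf CKO replicate 1 that of Gpnmb was 0.0858, and with no filter on dim probes they were 0.0558 and 0.056. Of this list 5 were higher (62.5%) and 1 lower (12.5%) at an unadjusted p under 0.05, beside 8.71% and 8.1% of all features. For 5 (62.5%) every sMaf CKO array lay above every control array, beside 11.3% of all features. The summed signals overlapped, at 30.1 to 47.5 in control and 28.0 to 42.1 in sMaf CKO liver, and most of the control sum came from Ly6c2, the marker that was lower (-0.85). Without Ly6c2, a sum added after the values were seen, they were 7.08 to 12.6 and 16.1 to 19.7 and did not overlap. Cd9 weighs most in that sum, with the highest signal of the remaining markers on every array (mean 3.11 in control and 3.92 in sMaf CKO liver, log2). The groups overlapped for Ccr2 (0.34) and Cx3cr1 (-0.03). The part of these cells in the values of Irf8, Ifi204, the GTPases and the other members was not tested.

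Sums of plasmacytoid dendritic cell markers were 0.28 to 0.46 in control and 0.40 to 0.63 in sMaf CKO liver, and those of B cells 0.54 to 1.24 and 0.62 to 1.29, with the B cell marker Pax5 not well above background on any array. Conventional dendritic cell markers summed to 0.58 to 0.69 and 0.48 to 0.74, and neutrophil markers to 3.77 to 6.13 and 6.13 to 9.03. Of the 6, 5, 4 and 5 tested genes of the neutrophil, plasmacytoid, conventional dendritic and B cell lists, 0 passed limma's test, with 1, 1, 0 and 0 higher at an unadjusted p under 0.05. Hepatocyte markers summed to 1891 to 2315 in control and 1267 to 2042 in sMaf CKO liver, with 7 of 8 genes negative (median -0.43, and -0.05 within slide 2) and 1 lower at an unadjusted p under 0.05. Medians were -0.14 for 8 sinusoidal endothelial, 0.63 for 6 stellate, 0.46 for 6 bile duct and 0.54 for 5 erythroid markers, of which 0 passed. At an unadjusted p under 0.05, 3 stellate and 2 bile duct markers were higher and 1 erythroid marker lower, against the same 8.71% and 8.1% of all features. The part of these lists was likewise not tested.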

How the data were processed

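Per the file headers, the authors' scanner software was Feature Extraction 10.7.3.1, whose processed spot intensities are already background-corrected. The deposited table of processed values is on a log2 scale and matches, over 27806 probes with r of at least 0.99998 on each array, the scanner values scaled as below and centred per probe on the median of the arrays, so its direction and scale are known. Its column medians lie between -0.11 and 0.09. Here, log2 processed signals were averaged over the spots of a probe, without control and outlier spots, minus each array's 75th percentile. Probes well above background on at least 3 arrays were kept (27859 of 41174). Accessions named 26690 probes through the RefSeq table, and other probes were tested by accession. The kept probe with the highest mean stood for a gene. More than 1 probe was kept for 10 members, and for 3 of them (Ifih1, Irf9 and Rsad2) the probes disagreed in sign.

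The test was limma 3.58.1 (R 4.3.3) with Benjamini-Hochberg adjustment over all features at 0.05. The procedure was also run on simulated arrays with independent noise, no slide effect and changes of 1 or more in size. That run does not bear on changes as small as those of the members. Members and lists were chosen with earlier results of these data known. Where no array of a group was well above background, the fold is a lower bound, against the lowest signal above background on each array of that group or the probe's own where higher. Array values are printed for members that passed, whose groups did not overlap, that differed by 1 or more, or that had the 6 smallest p. Up to 4 passing genes, or the 2 of smallest p, are named per pathway list, and cell marker lists are given by counts and sums. Alternatives were other background correction (normexp, offset 50, on median signals), normalization, filters, probe rules, blocks, variance models, single arrays left out, an adjusted p under 0.01 and, chosen after seeing the data, scaling on 5 spike-in probes. The array number limits the precision. 1 gene of the receptor and JAK-STAT list is not reported here.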

Additional observations from a re-analysis of the deposited data

How the results depend on the processing

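Against the 114 features reported as passing, normexp gave 74, quantile normalization 22, median scaling 252, spike-in scaling 13, no filter on dim probes 1, a filter on all arrays 267, slide as a block 340, slide 1 alone 196, a trended and robust variance 308, array weights 472, and an adjusted p under 0.01 gave 3. Single arrays left out gave 3 (sMaf CKO replicate 1), 6 (control replicate 1), 11 (sMaf CKO replicate 2), 22 (control replicate 3), 175 (control replicate 2) and 294 (sMaf CKO replicate 3). The number of members that passed was 0 in every setting run except array weights, where it was 1. The members' median was 0.51 with spike-in scaling, beside 0.27 for all features, and 0.055 to 0.38 with arrays left out, and 17 to 24 members were then positive. The labels do not say whether replicate numbers pair the samples, and the values cannot settle it. Same-numbered samples' deviations correlated at 0.06, 0.17 and 0.42, the last (replicate 3, also the slide 2 pair) being the highest of all pairs. Control replicate 2 correlated better with sMaf CKO replicate 1 (0.29) than with its own number. With the replicate block 291 features and 0 members passed.

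Signs turned as follows, and the cause was not tested. Quantile normalization gave 0.16 for Irf1, 0.0907 for Irf3, 0.27 for Ifitm3, 0.0438 for Iigp1 and 0.0112 for Irgm1. Spike-in scaling gave 0.22 for Irf1, 0.20 for Irf3, 0.27 for Ifit1, 0.21 for Ifitm3, 0.014 for Iigp1, 0.21 for Irgm1, 0.22 for Ifi35, 0.28 for Xaf1 and 0.0434 for Ifnl3. Array weights gave 0.0406 for Ddx58, 0.0978 for Ifit1, -0.0135 for Ifit3, 0.0446 for Ifi35, 0.0457 for Xaf1 and -0.25 for Maff. Slide 1 alone gave 0.045 for Ddx58, -0.0873 for Ifit3, -0.026 for Isg15 and -0.15 for Bst2. Slide 2 alone gave 0.0428 for Irf1, 0.29 for Ifitm3, -0.21 for Igtp, 0.61 for Xaf1, 0.0895 for Ifnl3, -0.42 for Ifi47 and -0.29 for Mafk. The mean of probes gave -0.14 for Ifih1 and -0.0086 for Ptpn6, normexp -0.0215 for Ifit3 and 0.0694 for Ifnl3, and median scaling -0.0178 for Ifit3.

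Ranges with arrays left out that cross 0 were -0.73 to 0.14 for Ddx58, -0.22 to 0.055 for Irf1, -0.33 to 0.12 for Irf3, -0.0246 to 0.64 for Irf7, -0.25 to 0.16 for Ifit1, -0.17 to 0.19 for Ifit3, -0.14 to 0.21 for Isg15, -0.0425 to 0.54 for Oas3 and -0.0776 to 0.28 for Bst2. They were -0.31 to 0.0955 for Ifitm3, -0.22 to 0.90 for Gbp2, -0.15 to 0.38 for Gbp3, -0.20 to 0.57 for Igtp, -0.23 to 0.0234 for Ifi35, -0.34 to 0.33 for Xaf1, -0.0701 to 0.44 for Mafk and -0.37 to 0.52 for Maff. Signal near background limits Oas3 and the second probes of Ifih1, Irf9 and Ifit2.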

Other observations

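The core of the element bound by CNC factors with small Maf proteins, TGACNNNGC on either strand, was searched in the same promoters. It occurs in a promoter of 6 of the 26 interferon response genes in the table (23.1%), beside 14% of all genes there. These were Irf7, Irf8, Oasl2, Rsad2, Isg20 and Igtp. Their differences between sMaf CKO and control liver were all positive, from 0.13 to 0.63 with a median of 0.51. Igtp was negative within slide 2, and Igtp and Irf7 turned sign when single arrays were left out. The 20 tested members without a match ran from -0.37 to 0.92, which holds the largest difference of all members, with a median of 0.07 and 12 positive. Usp18, Oas2 and Iigp1 have no promoter in the table. A match is a description of the letters in the window, and its bearing on the differences was not tested.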
